A study of Homo sapiens with 14 samples.

Results

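The genes described here encode the secreted WNT ligands, their Frizzled receptors and the proteins that raise or lower the signal. Their RNA was measured in NT2, a line of human embryonal carcinoma cells. Members were taken by gene symbol alone: every protein-coding gene named WNT, FZD, SFRP, DKK or RSPO with a number, with LGR4, LGR5, LGR6, AXIN2, LEF1, TCF7, NKD1, NOTUM, WIF1 and FRZB. This gave 51 of the 25952 genes of the count table: 19 WNT ligands, 10 FZD receptors, 10 secreted antagonists, 7 RSPO and LGR genes and 5 intracellular or feedback genes. The study treated NT2 cells with all-trans retinoic acid (RA) at 10 µM to induce neurons, or with bone morphogenetic protein-2 (BMP-2) to induce muscle cells, and asked how nucleotide excision repair changes. Its 14 libraries form 7 groups of 2, namely cells at days 5, 10 and 21 of RA, cells at days 5, 10 and 21 of BMP-2, and untreated cells at day 0. For BMP-2 the labels name 30 ng/ml for first tests and 40 ng/ml for later experiments, without giving the dose of each library. All groups are the same line grown in medium with fetal bovine serum. The labels also speak of a DMSO control, but the day 0 libraries are labelled as having had no treatment. Only day 0 cells served as untreated cells, so treatment and time in culture cannot be told apart in comparisons with day 0. Whether paired libraries came from separate cultures is not stated in the labels, so p-values measure the spread between these libraries, which may be technical.

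WNT proteins are lipid-modified secreted ligands that bind Frizzled receptors and the co-receptors LRP5 and LRP6. In the canonical branch this stabilises β-catenin, which acts with the LEF1 and TCF7 family on target genes, among them the feedback inhibitors AXIN2, NKD1 and NOTUM. Other branches, often driven by WNT5A or WNT11, act on cell polarity and movement without β-catenin. SFRP proteins, FRZB and WIF1 bind WNTs outside the cell, DKK1 blocks the co-receptors, and R-spondins (RSPO), through LGR receptors, keep Frizzled receptors on the membrane. In embryos, WNT signals pattern the neural tube posteriorly and act with BMPs in mesoderm.

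Total counts ran from 45773278 to 75754396 per library. The 2 BMP-2 day 10 libraries stood apart from each other: their log2 CPM values over the tested genes correlated at r = 0.918, against 0.964 to 0.990 within the other groups. Replicate 1 was closest to replicate 2 of BMP-2 day 5 (r = 0.981), and replicate 2 was closest to replicate 2 of BMP-2 day 21 (r = 0.966). Whether a BMP-2 day 10 library carries the label of another day was not tested, and its libraries are given one by one for most members described. RA day 10 replicate 2 was also slightly closer to replicate 1 of RA day 5 (r = 0.968) than to its own replicate (r = 0.964). The labelled line was checked on embryonal carcinoma markers (POU5F1, NANOG, LIN28A, TDGF1 and DNMT3B), whose summed level was 10.3 to 23.8 CPM in the day 21 libraries and 5489 and 6239 CPM at day 0. The summed level of 7 fibroblast and mesenchyme markers was 5890 and 5911 CPM at RA day 21, 33530 and 32370 CPM at BMP-2 day 21, 14170 CPM in BMP-2 day 10 replicate 2, 1735 to 3424 CPM in the other BMP-2 libraries and 32.6 and 42.7 CPM at day 0. That of 9 neuron markers was 541 and 575 CPM at RA day 21, 1060 and 734 CPM at RA day 10, and 126 and 99.9 CPM at day 0, but its members did not move together. At RA day 21 NEFM, MAP2 and SNAP25 were called higher and RBFOX3 and SYN1 lower, with a median log2 fold change of -1.24 over the 9, and NEFM and MAP2 averaged 359 and 152 CPM there. The sum of 6 smooth muscle markers was 1671 to 3712 CPM in the BMP-2 libraries, 243.9 to 922.5 CPM in the RA libraries and 292 and 369 CPM at day 0. CALD1 was its largest part, with means of 1813, 1809 and 1695 CPM at BMP-2 days 5, 10 and 21 and 268 CPM at day 0. Of the 6, 6, 5 and 4 were called higher at BMP-2 days 5, 10 and 21. MYH11 measured 0.78 and 0.693 CPM at BMP-2 day 21 against 1.46 and 0.974 at day 0. The 6 skeletal muscle markers summed to at most 21.8 CPM in any library. Of 5 cardiac muscle markers, 4 were called higher at BMP-2 days 5 and 10, and their sum was 2003 and 368 CPM at BMP-2 day 5, 425 and 691 at BMP-2 day 10, and 29.1 and 59.1 at day 0. The sum of 4 trophoblast markers was 63.4 to 352 CPM in the BMP-2 libraries, 24.5 to 149.5 CPM in the RA libraries and 13.9 and 16.0 CPM at day 0, and that of 4 endoderm markers, of which 3 were called higher at each BMP-2 day, was at most 15.0 CPM in any library. The part of these changes in cell makeup in the results below was not tested, and in bulk RNA fewer cells of a type and less RNA per cell cannot be told apart. Levels are CPM, counts scaled to the library total and its TMM factor. A gene was called higher or lower where edgeR's quasi-likelihood test gave a Benjamini-Hochberg adjusted p under 0.05 over all 19142 tested genes, of which 49 were members. WNT1 and DKK4 were not tested, with at most 6 and 4 counts in any group. An exact permutation test of 2 libraries against 2 cannot go below p = 0.333, so the p-values rest on the spread estimated over all groups.

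Members that were called were mostly higher, and the share of members called higher was above that of all genes in each of the 6 comparisons with day 0. Some members had few or no reads at day 0 and passed the filter through treated groups, so they could hardly be called lower. Among them were WNT6 (0 and 0 counts in the untreated libraries), WNT9B (0 and 1), SFRP4 (4 and 0), DKK2 (0 and 8) and WNT11 (4 and 8). They enter the counts and medians below, and the share of such genes among all tested genes was not counted. At RA day 5, 9 of 49 members were higher and 2 lower, against 5.59% and 2.72% of all tested genes. At RA day 10, 18 were higher and 3 lower (all genes 12.9% and 11.1%), and at RA day 21, 20 were higher and 7 lower (all genes 23.4% and 21.1%). At BMP-2 day 5, 23 were higher and 5 lower (all genes 15.9% and 13.4%). At BMP-2 day 10, 25 were higher and 5 lower (all genes 19.8% and 16.4%). At BMP-2 day 21, 21 were higher and 5 lower (all genes 25.0% and 22.1%). Shares of members called lower were thus below the background at every day except RA day 5. The median log2 fold change of the members was 0.79, 1.31 and 1.19 at RA days 5, 10 and 21, and 1.60, 2.02 and 1.60 at BMP-2 days 5, 10 and 21. Over all tested genes the medians lay between -0.002 and 0.096. WNT2B, WNT4, WNT11 and RSPO3 were called higher in all 6 comparisons, FZD5 was called lower in all 6, and 11 tested members were called in none. These counts rest on few libraries. Without untreated replicate 1 or 2 the called members were 3 and 4 at RA day 5 (all genes 2.74% and 1.71%), 8 and 4 at RA day 10 (12% and 7.44%), and 17 and 16 at BMP-2 day 5 (15.3% and 12.5%). Without untreated replicate 2 they were 17 at RA day 21 and 17 at BMP-2 day 10 (all genes 26.9% and 18.6%). They were 3 at RA day 5 without its replicate 1 and 7 without RA day 21 replicate 1 (all genes 2.29% and 4.83%). They were 8 and 10 at RA day 10 without its replicate 1 or 2 (all genes 9.24% and 14.5%), and 17 at RA day 21 without its replicate 2 (all genes 26.1%). Without both BMP-2 day 10 libraries 21 members were called at RA day 5 (all genes 15.1%), as many as without replicate 1 or 2 alone (14% and 13.9%). At BMP-2 day 10 itself, the calls of WNT6, WNT7B, NKD1 and SFRP1 were lost without replicate 1 (adjusted p = 0.0625, 0.205, 0.292 and 0.0905), and those of FZD2, FZD3 and WNT9A without replicate 2 (adjusted p = 0.12, 0.0735 and 0.273).

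**Figure D1:**
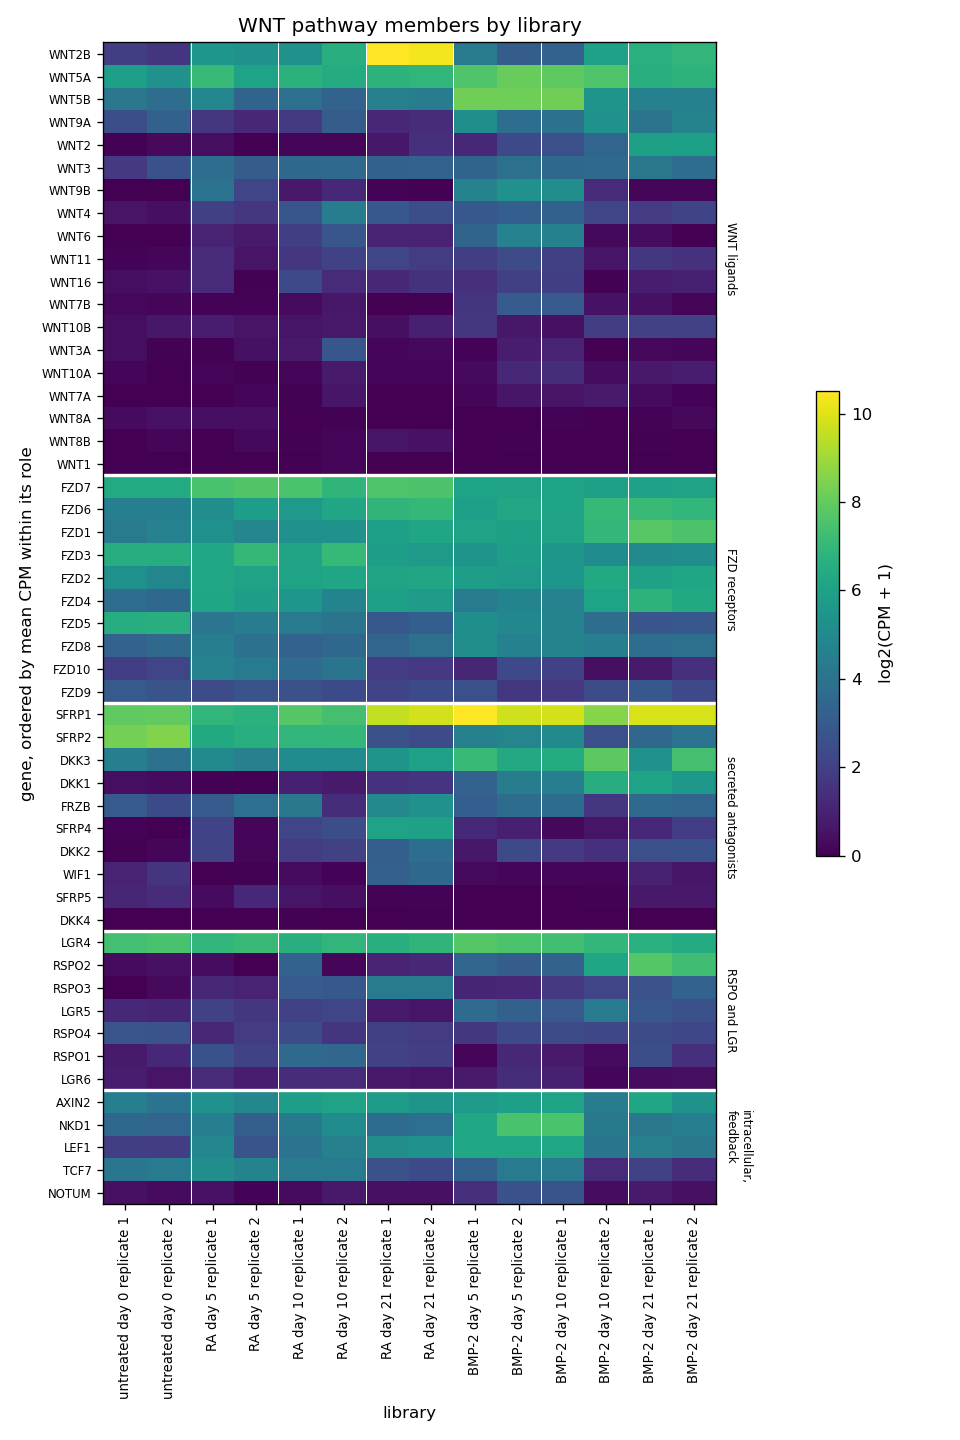
Level of each of the 51 members in each library, as log2(CPM + 1) by colour, with libraries across and genes down, grouped by role. WNT2B is brightest in the 2 RA day 21 libraries (1436 and 1273 CPM), and BMP-2 day 10 replicate 1 resembles the BMP-2 day 5 libraries while replicate 2 resembles BMP-2 day 21.

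Among the ligands, WNT2B had the highest CPM of any library, a scale that does not correct for gene length, and it did so under RA. It measured 2.88 and 1.98 CPM in the 2 untreated libraries, 44.8 and 40.8 at RA day 5, 40.1 and 95.5 at RA day 10, and 1436 and 1273 at RA day 21. Its BMP-2 libraries gave 19.3 and 7.55 CPM (day 5), 8.94 and 64.5 (day 10), and 102 and 120.1 (day 21). The groups of RA day 21 and BMP-2 day 21 lay above day 0 and did not overlap each other. The log2 fold change against day 0 was 9.13 ± 1.05 (SE) at RA day 21 (adjusted p = 0.00019) and 5.52 ± 0.90 at BMP-2 day 21 (adjusted p = 0.000859). Both calls held with each of the 14 libraries left out in turn. WNT2B had 3.92 at BMP-2 day 10, at 4.74 without replicate 1 and 1.89 without replicate 2. WNT2B shares 21.2% of its exon bases with ST7L, which measured 23.4 and 20.4 CPM at RA day 21 against 13.6 and 12.3 at day 0.

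WNT2, the closest relative of WNT2B, was highest in late BMP-2 libraries. It measured 0.0406 and 0.195 CPM at day 0, 1.26 and 3.95 at BMP-2 day 5, 4.84 and 9.92 at BMP-2 day 10, and 61.5 and 59.8 at BMP-2 day 21. Under RA it stayed at or below 0.326 CPM at days 5 and 10 and measured 0.583 and 1.75 at day 21. Its log2 fold change at BMP-2 day 21 against day 0 was 8.90 ± 1.34 (adjusted p = 0.000578), held with each library left out. At RA day 21 it was 3.20 ± 1.14 (adjusted p = 0.0425), a call lost without any of 7 libraries, among them RA day 21 replicate 2 (adjusted p = 0.231) and both untreated libraries. WNT2B was thus highest at RA day 21 and WNT2 at BMP-2 day 21. WNT2B was also called higher at BMP-2 day 21, at 102 and 120.1 CPM.

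A second set of ligands was high in early BMP-2 libraries and low again later. WNT5B, which is known for β-catenin-independent signalling, measured 16.9 and 12.6 CPM at day 0, 301 and 295 at BMP-2 day 5, 303 and 42.5 at BMP-2 day 10, and 23.8 and 22.9 at BMP-2 day 21. It ranged from 9.20 to 27.3 CPM over the 6 RA libraries and was called in none of the 3 RA groups (adjusted p = 0.56 at RA day 21). Relative to day 0 the log2 change at BMP-2 day 5 was 4.34 ± 0.81 (adjusted p = 0.00386), held with each library left out. At BMP-2 day 10 it was 3.55, but 1.53 without replicate 1 and 4.36 without replicate 2, so the 2 libraries gave different sizes, and the call was lost without untreated replicate 2 (adjusted p = 0.0597). WNT5B was named after its values were seen, as were FZD2, FZD3, FZD7, FZD8, FZD10, SFRP1, SFRP5, DKK3 and RSPO4 below. So were the other WNT genes described from WNT7B on, apart from WNT5A.

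WNT6 had 0 counts in both untreated libraries. It measured 9.46 and 24.6 CPM at BMP-2 day 5, 23.7 and 0.179 at BMP-2 day 10, and 0.287 and 0 at BMP-2 day 21. With a floor of 3 counts over the untreated group, it was at least 720-fold higher at BMP-2 day 5. At BMP-2 day 21, with 14 counts in 1 library and 0 in the other, it was not called. Its RA libraries gave 1.06 and 0.671 CPM (day 5), 2.89 and 5.93 (day 10), and 1.06 and 1.08 (day 21), at least 190-fold above day 0 at day 10. The edgeR calls of WNT6 at BMP-2 day 5 (adjusted p = 0.0126) and RA day 10 (adjusted p = 0.0286) were lost without either untreated library (adjusted p = 0.0641 to 0.146), and that at RA day 10 also without either of its own libraries. Its RA day 21 call (adjusted p = 0.0426) was lost without any of 10 libraries.

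WNT9B, which in the mouse embryo induces kidney tubules, had 1 count in the untreated group. It measured 15.1 and 3.59 CPM at RA day 5, 0.647 and 1.24 at RA day 10, and 0.0747 and 0 at RA day 21. In BMP-2 libraries its level was 24.8 and 38.3 CPM (day 5), 34.1 and 1.43 (day 10), and 0.123 and 0.126 (day 21). The ratio of BMP-2 day 5 to day 0 was 3900, with a 95% counting interval of 700 to 150000, and that of RA day 5 to day 0 was 1020 (180 to 40000). Such intervals and floors cover counting error only. The call at BMP-2 day 5 (adjusted p = 0.00276) held with each library left out. That at RA day 5 (adjusted p = 0.0153) was lost without RA day 5 replicate 1 (adjusted p = 0.0645) or either untreated library. WNT7B was also higher early in BMP-2, with 1.96 and 7.31 CPM at BMP-2 day 5, 6.74 and 0.447 at BMP-2 day 10, 0.370 and 0.126 at BMP-2 day 21, and 0.162 and 0.111 at day 0. It had 0 counts at RA day 21, at least 6.2-fold below day 0.

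WNT5A, the ligand with the highest CPM at day 0, was higher in every treated library than in either untreated one. It measured 60.3 and 39.2 CPM at day 0, 138.5 and 67.1 at RA day 5, 108 and 86.7 at RA day 10, and 110 and 120.1 at RA day 21. BMP-2 treated cells had 193 and 265 CPM (day 5), 238 and 193 (day 10), and 96.4 and 110.1 (day 21). Its fitted log2 change at BMP-2 day 5 was 2.20 ± 0.34 (adjusted p = 0.00157), held with each library left out. At RA day 21 it was 1.21 ± 0.33 (adjusted p = 0.0139), lost without RA day 21 replicate 2 (adjusted p = 0.0687) or untreated replicate 2 (adjusted p = 0.116). WNT5A-AS1, which lies within the WNT5A span, followed the same course at 1.73 to 17.2 CPM, and whether reads were counted by strand is not known here.

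WNT4, WNT11 and WNT3 changed less in CPM. WNT4, needed for kidney and female tract formation in the mouse, averaged 2.55 to 13.1 CPM in the treated groups and 0.424 CPM at day 0. WNT11 averaged 0.918 to 3.66 CPM in the treated groups and 0.0962 CPM at day 0. WNT3, an early canonical ligand of the mouse primitive streak, averaged 8.76 to 14.6 CPM in the treated groups and 3.82 CPM at day 0, and was called higher in all but RA day 5. The BMP-2 day 10 libraries of WNT4 measured 8.59 and 3.55 CPM, those of WNT11 2.96 and 0.514 CPM, and those of WNT3 10.5 and 11.4 CPM. The WNT11 value there was 4.13, at 2.37 without replicate 1 and 4.89 without replicate 2. The calls of WNT4 and WNT11 at RA day 5 were lost without RA day 5 replicate 1 (adjusted p = 0.144 for WNT4 and 0.289 for WNT11), among other libraries. Those of WNT3 were lost without untreated replicate 1 at RA days 10 and 21 and BMP-2 days 5 and 10 (adjusted p = 0.0934 to 0.198), and held with each library left out at BMP-2 day 21. WNT9A stood on different sides of day 0 in the 2 treatments. It measured 1.23 and 1.51 CPM at RA day 21, 15.3 and 25.1 CPM at BMP-2 day 21 and 4.73 and 8.56 CPM at day 0. It was called lower at RA day 21 (log2 fold change -2.28 ± 0.72, adjusted p = 0.0267), a call lost without either RA day 21 library or untreated replicate 2. Its value at BMP-2 day 21 was 1.60 ± 0.70 (adjusted p = 0.0823). The canonical prototypes WNT1, WNT3A and WNT8A stayed near 0: the highest single library of WNT3A was RA day 10 replicate 2 at 6.11 CPM, and WNT8A stayed at or below 0.445 CPM, with 0 counts at BMP-2 day 5, at least 14-fold below day 0. WNT1 was at or below 0.0894 CPM. WNT7A, WNT8B, WNT10A, WNT10B and WNT16 stayed at or below 3.98 CPM in every library, and of these WNT10B alone was called against day 0, higher at BMP-2 day 21, a call lost without either library of either group.

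**Figure D2:**
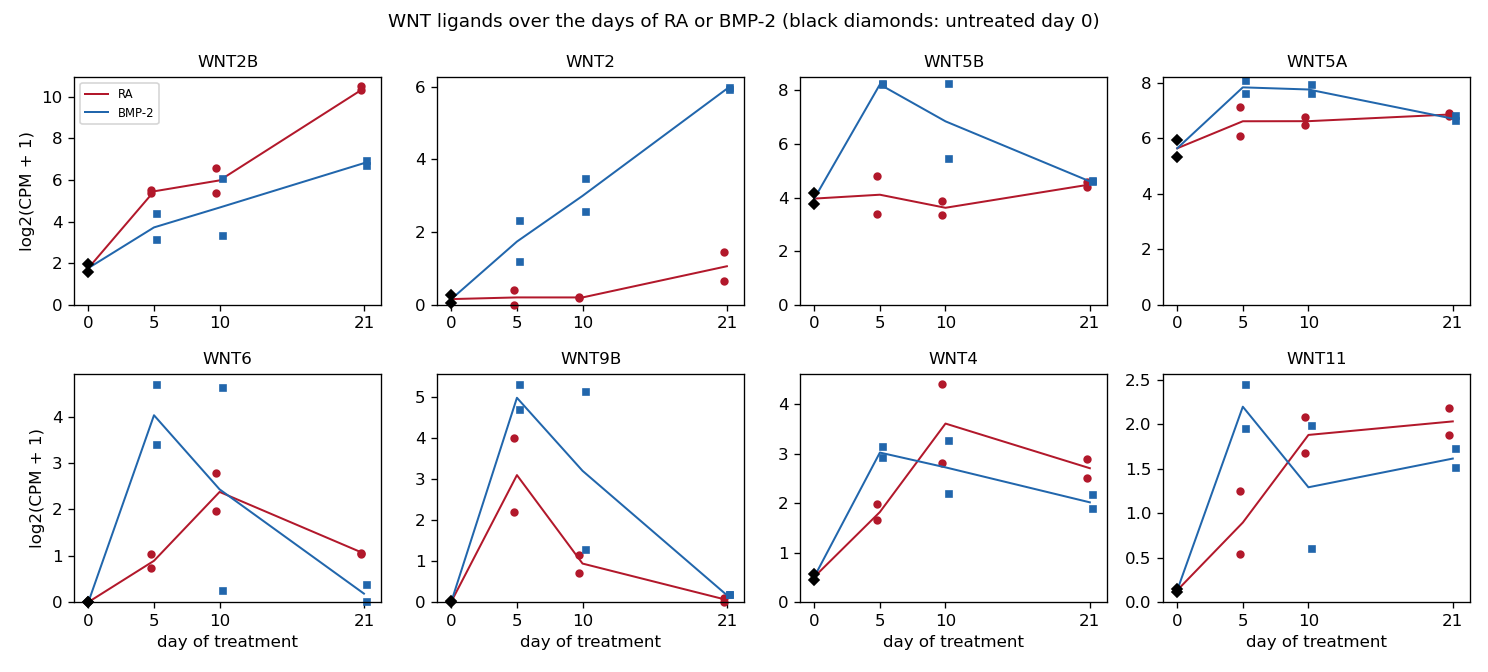
Level of 8 WNT ligands over days 0, 5, 10 and 21, as log2(CPM + 1), with red circles for RA, blue squares for BMP-2, black diamonds for untreated day 0 and lines through group means of log2 values. WNT2B climbs under RA to 1436 and 1273 CPM, WNT2 climbs under BMP-2 to 61.5 and 59.8 CPM, and WNT5B, WNT6 and WNT9B peak early under BMP-2 with the 2 day 10 libraries far apart.

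The upstream sequences of 4 members are shown because WNT6 and WNT9B had many reads at BMP-2 day 5 and at most 1 at day 0, while DKK1 and LEF1 are textbook canonical targets. Each is the 250 bases before the RefSeq start in build GRCh38.p14, 5′ to 3′ on the gene's strand. The windows are chr10:52314031-52314280 (plus strand) for DKK1, chr4:108166302-108166551 (minus strand) for LEF1, chr2:218859555-218859804 (plus strand) for WNT6 and chr17:46851333-46851582 (plus strand) for WNT9B. Capitals mark CTTTG, the core of the LEF1 and TCF7 recognition site, on either strand.
DKK1: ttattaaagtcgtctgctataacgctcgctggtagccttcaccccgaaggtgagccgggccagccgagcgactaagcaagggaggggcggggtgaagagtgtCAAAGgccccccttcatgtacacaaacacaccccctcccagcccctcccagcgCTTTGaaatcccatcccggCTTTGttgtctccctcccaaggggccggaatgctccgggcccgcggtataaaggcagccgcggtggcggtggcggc
LEF1: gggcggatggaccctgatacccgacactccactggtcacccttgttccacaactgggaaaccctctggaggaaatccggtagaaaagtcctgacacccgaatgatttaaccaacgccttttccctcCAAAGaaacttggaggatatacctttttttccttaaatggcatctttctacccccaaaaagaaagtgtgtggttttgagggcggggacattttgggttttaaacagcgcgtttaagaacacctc
WNT6: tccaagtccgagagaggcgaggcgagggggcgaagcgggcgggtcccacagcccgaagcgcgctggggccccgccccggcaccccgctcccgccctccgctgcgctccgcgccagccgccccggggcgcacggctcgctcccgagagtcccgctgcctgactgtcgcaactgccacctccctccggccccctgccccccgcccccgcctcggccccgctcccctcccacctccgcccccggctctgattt
WNT9B: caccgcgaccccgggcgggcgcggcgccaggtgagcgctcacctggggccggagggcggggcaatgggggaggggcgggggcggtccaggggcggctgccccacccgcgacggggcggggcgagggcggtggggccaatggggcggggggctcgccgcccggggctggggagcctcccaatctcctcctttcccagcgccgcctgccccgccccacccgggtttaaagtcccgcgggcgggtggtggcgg
DKK1 held 3 matches and LEF1 held 1, at 124 bases before its start, while the other two windows held none. RefSeq promoters were found for 34 of the 51 members, with 40 starts. The full motif CTTTGAT on either strand was in 0 of 40 upstream windows of members, against 2.26% of 35116 promoters. The core CTTTG, which lies within CTTTGAT, was in 9 of 40, against 42.1% of all. Direct repeats of AGGTCA spaced by 2 or 5 bases, the retinoic acid receptor arrangement, were in 0 of 40 and in 0.00285% of all for each spacing. A match is a description and not a binding site, and an absent match speaks only for these letters in these windows.

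Frizzled receptors changed in opposite directions. FZD5 was the 1 member called lower in all 6 comparisons with day 0. SFRP2 and RSPO4, among others, also averaged less than at day 0 in every treated group, without a call in each. FZD5 measured 92.1 and 98.6 CPM at day 0, 16.4 and 21.0 at RA day 5, 19.2 and 15.4 at RA day 10, and 6.37 and 7.76 at RA day 21. Its BMP-2 libraries gave 36.7 and 28.7 CPM (day 5), 25.8 and 12.6 (day 10), and 5.91 and 6.15 (day 21). The log2 fold change against day 0 was -3.75 ± 0.33 at RA day 21 (adjusted p = 8.32e-05) and -3.98 ± 0.34 at BMP-2 day 21 (adjusted p = 6.21e-05). The calls held with each library left out, except at BMP-2 day 5, where the adjusted p was 0.0533 without replicate 2. FZD3 also fell under BMP-2, to 31.4 and 34.7 CPM at day 21 against 92.0 and 92.2 CPM at day 0.

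FZD1, FZD4 and FZD6 rose. FZD1 measured 19.1 and 24.3 CPM at day 0, 38.3 and 28.5 at RA day 5, 37.7 and 41.1 at RA day 10, 60.7 and 73.4 at RA day 21. In BMP-2 libraries its level was 65.2 and 61.2 CPM (day 5), 64.7 and 124 (day 10), and 217 and 191 (day 21), where its log2 fold change was 3.23 ± 0.30 (adjusted p = 7.9e-05). FZD4, the receptor of Norrin in the retina, measured 12.5 and 10.3 CPM at day 0, 74.4 and 57.5 at RA day 5, 44.9 and 25.5 at RA day 10, and 60.4 and 53.2 at RA day 21. BMP-2 treated cells had 19.7 and 25.4 CPM (day 5), 24.2 and 67.9 (day 10), and 110.2 and 82.0 (day 21). FZD4 shares 18.9% of its exon bases with PRSS23, whose mean was 40.4 CPM at RA day 21, 447 at BMP-2 day 21 and 9.12 at day 0, and reads of the 2 genes may not be separable there. FZD6 measured 22.4 and 22.4 CPM at day 0, 34.6 and 58.9 at RA day 5, 50.8 and 70.8 at RA day 10, and 116 and 127 at RA day 21, and 59.9 to 135 CPM in the BMP-2 libraries, with 66.6 and 130.3 at day 10. For all of these the day 21 calls held with each library left out.

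FZD7, a receptor known for its part in pluripotent human cells, told the treatments apart. It measured 85.1 and 85.4 CPM at day 0, 178 and 198 at RA day 5, 183 and 117 at RA day 10, and 198 and 191 at RA day 21. All 6 BMP-2 libraries lay between 61.6 and 68.3 CPM, below both untreated libraries, and none of the 3 BMP-2 groups was called (at day 21 log2 fold change -0.39 ± 0.18, adjusted p = 0.104). Its log2 fold change at RA day 21 was 1.19 ± 0.18 (adjusted p = 0.00079), held with each library left out. FZD10 was an early RA gene, with 24.4 and 18.8 CPM at RA day 5, 11.8 and 15.7 at RA day 10, and 2.62 and 2.40 at RA day 21, against 2.88 and 3.59 at day 0, though no comparison with day 0 was called (adjusted p = 0.0826 at RA day 5). Its antisense neighbour FZD10-AS1 averaged 23.9, 20.6 and 5.43 CPM at the same RA days and 1.31 CPM at day 0. FZD2 rose to 69.5 and 72.9 CPM at RA day 21 and 63.8 and 72.0 CPM at BMP-2 day 21, against 37.5 and 27.1 CPM at day 0, and both calls were lost without untreated replicate 2 (adjusted p = 0.0649 and 0.0775). FZD8 was called higher at BMP-2 days 5 and 10 alone, with 35.3 and 23.8 CPM at day 5 against 9.01 and 11.3 at day 0, and FZD9 was called in no comparison. FZD7, FZD5, FZD2 and FZD1 can be compared per length, since the length behind their RPKM holds few intron bases. On the deposited RPKM scale, FZD7 led at RA day 21 with 55.9 and 53.0 RPKM, followed by FZD2 with 38.1 and 39.2, and FZD1 led at BMP-2 day 21 with 46.7 and 40.3, followed by FZD2 with 30.0 and 33.3. At day 0, FZD7 led with 21.6 and 21.0 RPKM, and FZD2 (18.5 and 13.0) and FZD5 (12.9 and 13.4) overlapped.

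**Figure D3:**
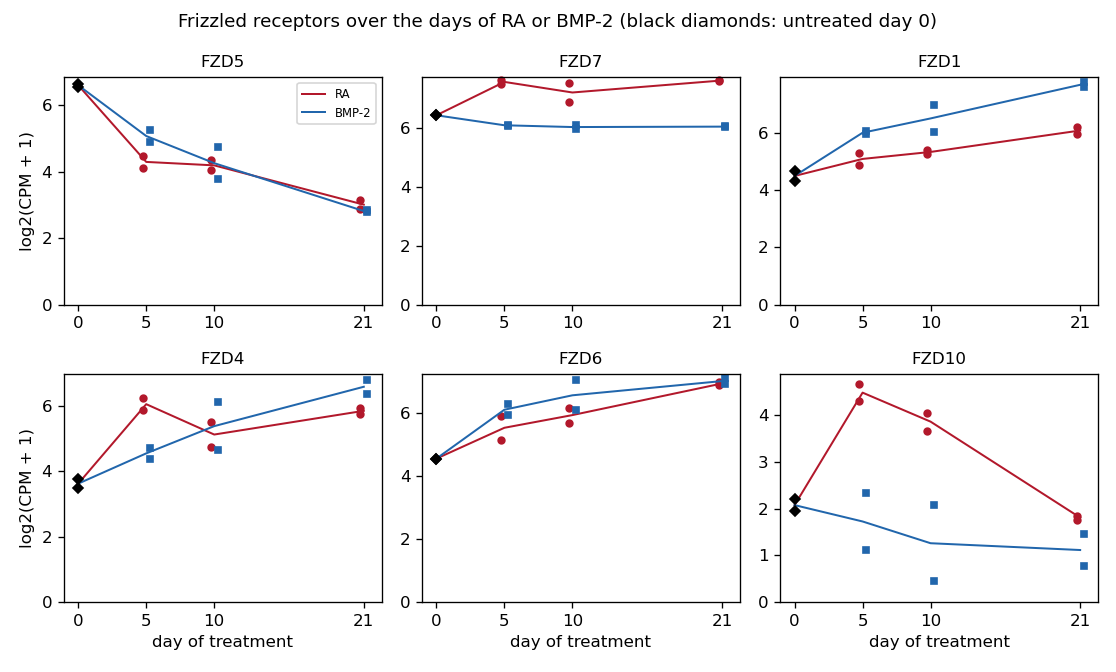
Level of 6 Frizzled receptors over days 0, 5, 10 and 21, as log2(CPM + 1), with red circles for RA, blue squares for BMP-2, black diamonds for untreated day 0 and lines through group means of log2 values. FZD5 falls under both treatments, the RA libraries of FZD7 (117 to 198 CPM) lie above all its BMP-2 and untreated libraries, and FZD1 is highest at BMP-2 day 21.

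The secreted antagonists changed places with each other. SFRP2 had the highest CPM of the antagonists at day 0, with 321 and 365, and measured 83.2 and 98.2 at RA day 5, 120.5 and 123 at RA day 10, and 5.14 and 4.28 at RA day 21. Its BMP-2 libraries gave 23.1 and 26.3 CPM (day 5), 30.7 and 4.87 (day 10), and 9.98 and 15.0 (day 21). Its log2 fold change was -6.19 ± 0.73 at RA day 21 (adjusted p = 0.000214) and -4.78 ± 0.68 at BMP-2 day 21 (adjusted p = 0.000438), both held with each library left out. The BMP-2 day 10 value was -4.27, at -6.14 without replicate 1 and -3.48 without replicate 2. At RA day 5 it was -1.92 ± 0.60 (adjusted p = 0.0797), and 0.000348 without both BMP-2 day 10 libraries. SFRP1, a relative of SFRP2, was instead called higher at RA day 21 and at each of the 3 BMP-2 days. It measured 247 and 253 CPM at day 0, 119 and 103 at RA day 5, 213 and 168 at RA day 10, and 748 and 895 at RA day 21. In BMP-2 libraries its level was 1460 and 864 CPM (day 5), 921 and 387 (day 10), and 934 and 928 (day 21). Its log2 fold change was 1.72 ± 0.37 at RA day 21 (adjusted p = 0.00411) and 2.22 ± 0.37 at BMP-2 day 5 (adjusted p = 0.00233), both held with each library left out. At BMP-2 day 10 its call was lost without replicate 1 or without either untreated library (adjusted p = 0.0776 to 0.0905).

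SFRP4 and WIF1, both WNT-binding proteins, had their highest CPM at RA day 21. SFRP4 measured 0.0811 and 0 CPM at day 0, 3.28 and 0.146 at RA day 5, 3.64 and 4.68 at RA day 10, and 68.1 and 64.2 at RA day 21, while it stayed at or below 2.73 CPM in the BMP-2 libraries. Its fitted log2 change at RA day 21 was 10.81 ± 1.61 (adjusted p = 0.000633), held with each library left out, at 9.63 to 14.9. SFRP4 had 4 counts in untreated replicate 1 and 0 in replicate 2, and the size of its changes against day 0 rests on these. With untreated replicate 1 left out no count of SFRP4 remained at day 0. It was also called higher at BMP-2 day 5 (4.91, adjusted p = 0.031), a call lost without any one library of the groups compared (adjusted p = 0.0596 to 0.181). At BMP-2 day 21 it was called higher as well (5.79, adjusted p = 0.00897), but not without untreated replicate 2 (adjusted p = 0.0731). EPDR1, which lies in the SFRP4 span, averaged 153 CPM at RA day 21 and 37.2 CPM at day 0. WIF1 measured 1.10 and 2.02 CPM at day 0, 0 and 0.0292 at RA day 5, 0.228 and 0.0596 at RA day 10, and 8.31 and 10.7 at RA day 21. It was thus lower early (ratio 0.0103, 95% counting interval 0.0012 to 0.038 at RA day 5, adjusted p = 0.00368) and higher late (log2 fold change 2.61 ± 0.69, adjusted p = 0.0117). The late call was lost without RA day 21 replicate 2 (adjusted p = 0.074) or untreated replicate 1 (adjusted p = 0.089). Under BMP-2 WIF1 was 0.0943 to 0.190 CPM at days 5 and 10 and 0.944 and 0.546 at day 21. FRZB measured 29.6 and 38.6 CPM at RA day 21 against 6.81 and 4.09 at day 0 and missed the threshold (log2 fold change 2.65 ± 0.99, adjusted p = 0.0522, and 0.0233 without both BMP-2 day 10 libraries). Its RA day 10 libraries were far apart at 17.7 and 1.61 CPM.

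DKK1 was the DKK gene called between RA and BMP-2 at day 21. It measured 0.325 and 0.223 CPM at day 0, 8.83 and 20.7 at BMP-2 day 5, 21.6 and 92.5 at BMP-2 day 10, and 66.8 and 47.4 at BMP-2 day 21. In RA libraries its level was 0.0407 and 0 CPM (day 5), 0.876 and 0.686 (day 10), and 1.84 and 2.09 (day 21). The log2 fold change at BMP-2 day 21 was 7.72 ± 0.86 (adjusted p = 0.00015), held with each library left out. At BMP-2 day 10 it was 7.71, at 8.42 without replicate 1 and 6.31 without replicate 2. DKK2 was called higher under both treatments, in all but RA day 5, and measured 7.84 and 12.7 CPM at RA day 21, 4.97 and 5.29 CPM at BMP-2 day 21, and 0 and 0.111 CPM at day 0. DKK3, a divergent family member, averaged 53.2 CPM at RA day 21, 104.5 at BMP-2 day 21 and 17.9 at day 0, and was called higher in the 3 BMP-2 groups alone. Its BMP-2 day 21 call was lost without replicate 2 of that group (adjusted p = 0.104) or untreated replicate 2 (adjusted p = 0.074), and its libraries measured 41.8 and 167 CPM. SFRP5 had 0 counts at BMP-2 day 5, at least 54-fold below day 0, where it averaged 1.35 CPM.

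Among the R-spondins, RSPO2 was called between RA and BMP-2 at day 21, and RSPO3 was called higher than day 0 under both. RSPO2 measured 0.223 and 0.390 CPM at day 0, 9.86 and 7.48 at BMP-2 day 5, 9.05 and 73.5 at BMP-2 day 10, and 211 and 156 at BMP-2 day 21. Its RA libraries gave 0.285 and 0 CPM (day 5), 8.78 and 0.0894 (day 10), and 1.05 and 1.24 (day 21), so that the RA day 10 libraries disagreed. Its log2 fold change at BMP-2 day 21 was 9.18 ± 1.93 (adjusted p = 0.00338), held with each library left out, and that at BMP-2 day 5 was 4.78 ± 1.65 (adjusted p = 0.0531). Its value at BMP-2 day 10 was 7.03, at 7.85 without replicate 1 and 4.83 without replicate 2, and that call was lost without either untreated library (adjusted p = 0.0829 and 0.0899). RSPO3 measured 0 and 0.195 CPM at day 0, 1.22 and 1.08 at RA day 5, 7.10 and 6.47 at RA day 10, and 18.4 and 20.0 at RA day 21. BMP-2 treated cells had 1.12 and 1.23 CPM (day 5), 2.31 and 3.64 (day 10), and 5.38 and 8.92 (day 21). Its log2 fold change was 7.47 ± 0.89 at RA day 21 (adjusted p = 0.000225) and 6.04 ± 0.85 at BMP-2 day 21 (adjusted p = 0.000403), both held with each library left out, and with untreated replicate 2 left out no count remained at day 0. RSPO1 peaked at RA day 10 with 11.2 and 10.0 CPM, against 0.669 and 1.31 CPM at day 0, a call (adjusted p = 0.0226) lost without either library of either group. RSPO4 was highest at day 0 with 5.74 and 5.50 CPM and was called nowhere.

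LGR4 and LGR5 are R-spondin receptors. LGR4, which had the highest CPM of the class at day 0, measured 166 and 179 CPM at day 0, 121 and 137 at RA day 5, 94.4 and 119.5 at RA day 10, and 96.7 and 117 at RA day 21. Its BMP-2 libraries gave 212 and 185 CPM (day 5), 159 and 124 (day 10), and 102 and 88.5 (day 21), where it was called lower (log2 fold change -0.85 ± 0.18, adjusted p = 0.00381), held with each library left out. It was also called lower at RA days 10 and 21 (-0.69 at both), calls lost without some single libraries (adjusted p = 0.0688 to 0.201). LGR5, a stem cell marker of gut and hair, measured 1.28 and 1.10 CPM at day 0 and rose under BMP-2 to 11.7 and 8.47 (day 5), 6.72 and 18.3 (day 10), and 6.18 and 5.16 (day 21). In RA libraries its level was 3.09 and 2.13 CPM (day 5), 3.16 and 3.64 (day 10), and 0.687 and 0.512 (day 21). LGR5 was called higher at RA day 10 as well as at BMP-2 days 5, 10 and 21. Relative to day 0 the log2 change at BMP-2 day 5 was 3.09 ± 0.47 (adjusted p = 0.00156), held with each library left out. LGR6 was called in no comparison.

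**Figure D4:**
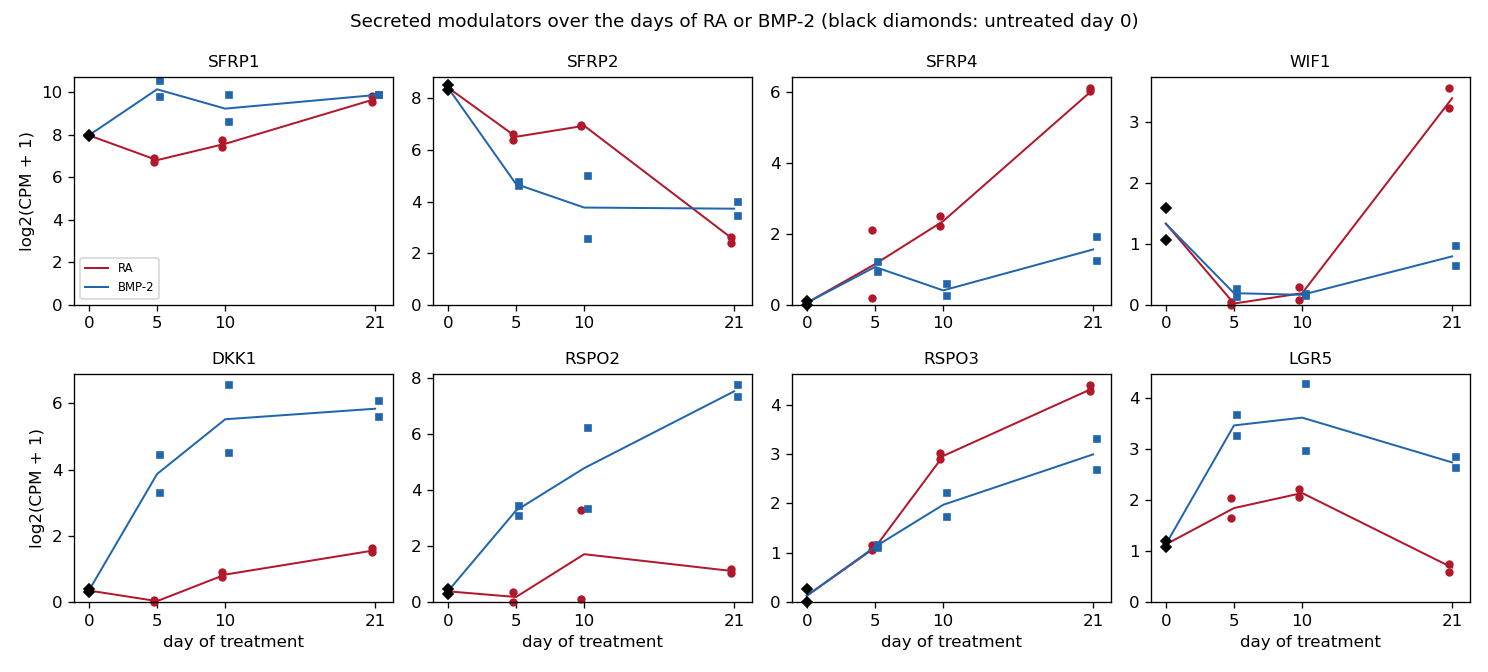
Level of 8 secreted modulators and R-spondin pathway genes over days 0, 5, 10 and 21, as log2(CPM + 1), with red circles for RA, blue squares for BMP-2, black diamonds for untreated day 0 and lines through group means of log2 values. SFRP4 and WIF1 are highest at RA day 21, DKK1 and RSPO2 are highest in late BMP-2 libraries, and SFRP2 falls under both treatments.

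Of the intracellular genes, LEF1 changed most. It measured 2.92 and 2.78 CPM at day 0, 28.1 and 5.70 at RA day 5, 15.2 and 23.2 at RA day 10, and 36.1 and 41.6 at RA day 21. In BMP-2 libraries its level was 78.8 and 76.8 CPM (day 5), 76.3 and 16.0 (day 10), and 23.1 and 17.7 (day 21). Its fitted log2 change was 4.77 ± 0.84 at BMP-2 day 5 (adjusted p = 0.00295) and 3.77 ± 0.80 at RA day 21 (adjusted p = 0.00413), both held with each library left out. For LEF1 the BMP-2 day 10 value was 4.02, at 2.48 without replicate 1 and 4.74 without replicate 2. The difference between RA and BMP-2 at day 21 did not pass the test (log2 fold change 0.93 ± 0.72, adjusted p = 0.422). TCF7 measured 16.4 and 18.5 CPM at day 0 and 34.5 and 25.7 at RA day 5, where it was not called. Late its levels lay below day 0, unlike those of LEF1, with 5.07 and 4.16 CPM at RA day 21 and 3.24 and 1.51 at BMP-2 day 21. It was not called at RA day 21 and was called lower at BMP-2 day 21 (adjusted p = 0.0252). That call was lost without either library of either group, the highest adjusted p being 0.153 without BMP-2 day 21 replicate 2.

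The feedback inhibitors did not move as 1 group. AXIN2 measured 21.6 and 15.0 CPM at day 0, 38.9 and 28.2 at RA day 5, 57.9 and 65.5 at RA day 10, and 52.0 and 43.0 at RA day 21. BMP-2 treated cells had 50.1 and 59.4 CPM (day 5), 66.6 and 21.0 (day 10), and 70.6 and 40.4 (day 21). It was called higher at RA days 10 and 21 and BMP-2 days 5 and 21 (log2 fold changes 1.38 to 1.76, adjusted p = 0.0176 to 0.0345), each call lost without untreated replicate 2 (adjusted p = 0.12 to 0.19). At BMP-2 day 10 it was 1.26 (adjusted p = 0.0560), at 0.20 without replicate 1 and 1.87 without replicate 2. NKD1 measured 10.2 and 9.84 CPM at day 0, 75.5 and 177 at BMP-2 day 5, 187 and 17.8 at BMP-2 day 10, and 17.0 and 22.1 at BMP-2 day 21, with 8.14 to 32.5 CPM in the RA libraries. Its call at BMP-2 day 5 (log2 fold change 3.65 ± 0.93, adjusted p = 0.0159) was lost without replicate 2 of that group (adjusted p = 0.0769) or either untreated library. NOTUM, an enzyme that removes the lipid of WNTs, measured 1.75 and 5.25 CPM at BMP-2 day 5, 5.61 and 0.268 at BMP-2 day 10 and 0.406 and 0.223 at day 0, and missed the threshold at BMP-2 day 5 (3.48 ± 1.27, adjusted p = 0.0639, and 0.0122 without both BMP-2 day 10 libraries).

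RA and BMP-2 were compared with each other at the same day, within the fit over all 14 libraries, so the day 0 libraries enter through the estimated spread. At day 5, 4 members were higher under RA and 8 lower, against 5.97% and 6.25% of all genes. At day 10, 4 were higher and 8 lower (all genes 5.11% and 5.73%), and at day 21, 4 were higher and 6 lower (all genes 5.99% and 6.07%). The members' median log2 fold change, RA over BMP-2, was -0.81, -0.33 and -0.14 at days 5, 10 and 21, and that of all genes lay between -0.001 and 0.024. At day 21 the members higher under RA were WNT2B (log2 fold change 3.61 ± 0.81, adjusted p = 0.0204), SFRP4 (5.02 ± 1.17, adjusted p = 0.0232), WIF1 (3.67 ± 0.72, adjusted p = 0.0126) and FZD7 (1.58 ± 0.19, adjusted p = 0.00162). Those lower under RA were RSPO2 (-7.32 ± 1.74, adjusted p = 0.0258), WNT2 (-5.69 ± 1.13, adjusted p = 0.0128), DKK1 (-4.86 ± 0.73, adjusted p = 0.00446), WNT9A (-3.88 ± 0.77, adjusted p = 0.0127), LGR5 (-3.24 ± 0.48, adjusted p = 0.00422) and FZD1 (-1.61 ± 0.28, adjusted p = 0.00842). FZD7 was higher under RA at all 3 days, and these calls held with each library left out. The day 21 calls of the other members were lost without 1 or more of the 4 libraries compared, so the count was 2 and 1 without RA day 21 replicate 1 or 2 (all genes 1.44% and 1.71%), and 6 and 4 without BMP-2 day 21 replicate 1 or 2 (5.36% and 3.1%). At day 5 the count of 12 was 5 and 7 without BMP-2 day 5 replicate 1 or 2 (all genes 4.40% and 5.17%), 3 without RA day 5 replicate 2 (2.49%), and 27 without either BMP-2 day 10 library (20.9%). At day 10 it was 4 and 2 without RA day 10 replicate 1 or 2 (all genes 3.40% and 3.08%), and 22 without BMP-2 day 10 replicate 1 (22.0%).

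**Figure D5:**
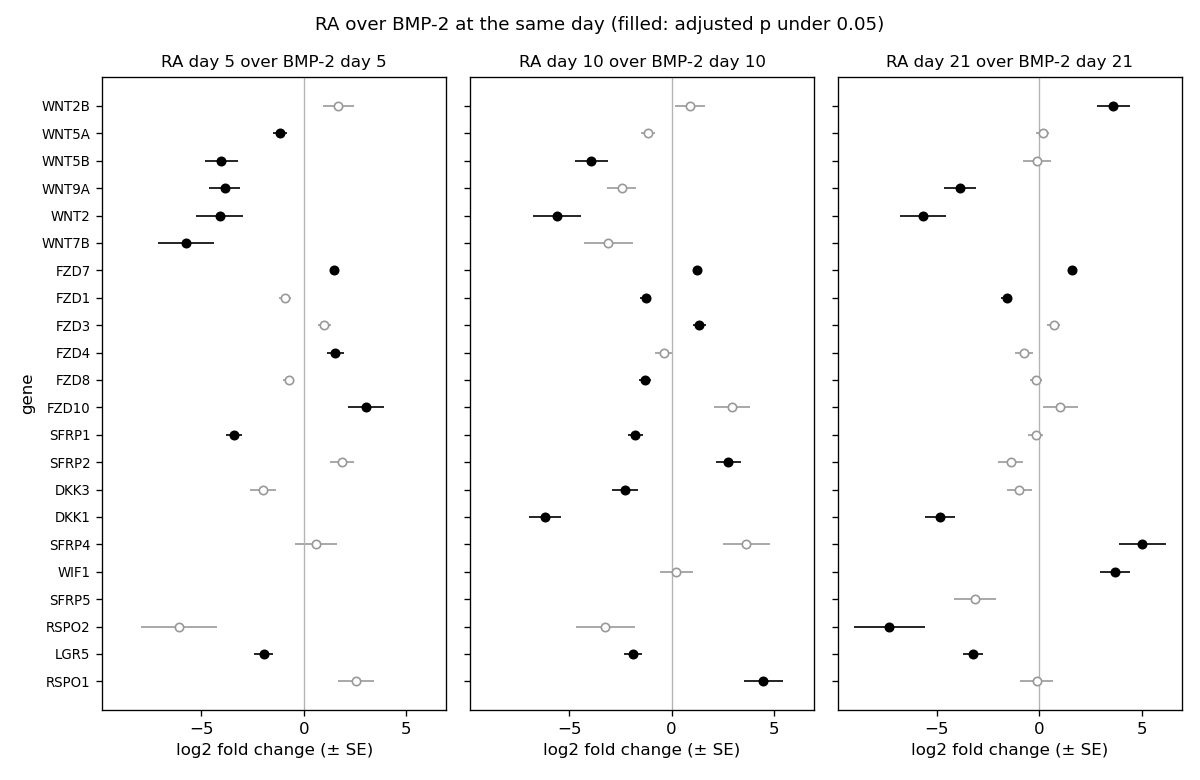
Log2 fold change of RA over BMP-2 at days 5, 10 and 21 for the 22 members called at any of these days, with SE as bars and filled points for adjusted p under 0.05. The 5 points with at most 3 counts in a group are not drawn. FZD7 lies right of 0 at each day (1.49, 1.22 and 1.58), and WNT2 and DKK1 lie left of 0.

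Between day 21 and day 5 of RA, 8 members were higher at day 21 and 8 lower, against 13.9% and 14.8% of all genes. Between day 21 and day 5 of BMP-2, 6 were higher at day 21 and 7 lower, against 7.77% and 7.75% of all genes. In RA, WNT2B, SFRP4, RSPO3 and SFRP1 were among those higher at day 21, and WNT9B and SFRP2 among those lower. In BMP-2, WNT2, WNT2B, RSPO3 and SFRP5 were among those higher at day 21, and WNT9B, WNT6 and WNT5B among those lower. The RA count of 16 was 9 and 8 without RA day 21 replicate 1 or 2 (all genes 10.7% and 9.49%) and 10 without RA day 5 replicate 2 (12%). The BMP-2 count of 13 was 4 and 0 without BMP-2 day 21 replicate 1 or 2 (all genes 4.35% and 0.451%), 0 and 6 without BMP-2 day 5 replicate 1 or 2 (0.00496% and 4.93%), and 24 without either BMP-2 day 10 library (26.3%). Where edgeR called 0, 20 members had an unadjusted p under 0.05, and DESeq2 on all libraries called 23.

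Among the other pathway genes, those called in all 6 comparisons with day 0 included WLS, which was higher, and TCF7L1, which was lower. Of 21 core genes, 6 were called higher and 4 lower at RA day 21, and 5 higher and 3 lower at BMP-2 day 21, with medians of 0.12 and -0.11. Of all genes, 23.4% were higher and 21.1% lower at RA day 21, and 25.0% and 22.1% at BMP-2 day 21, so the core genes lay near this background. TCF7L1, the TCF factor that represses targets in pluripotent cells, averaged 20.5 CPM at RA day 21, 32.5 at BMP-2 day 21 and 122.9 at day 0, with log2 fold changes of -2.58 ± 0.25 and -1.92 ± 0.24, held with each library left out. Of 4 genes of secretion and receptor turnover, WLS was called higher at each day. WLS, the carrier that brings WNTs to the surface, measured 651 and 663 CPM at RA day 21, 459 and 494 at BMP-2 day 21 and 27.3 and 27.3 at day 0, and reached 1271 and 1306 at BMP-2 day 5. Its log2 fold changes of 3.88 to 5.56 held with each library left out. RNF43, a ligase that clears Frizzled receptors and is itself a target, was at 16.2 and 60.6 CPM at BMP-2 day 5, 62.1 and 1.21 at BMP-2 day 10, and 2.37 and 2.05 at day 0, with the day 10 libraries split as for NKD1. The log2 fold change of RNF43 at BMP-2 day 10 was 3.84, and -0.87 (adjusted p = 0.312) without replicate 1 of that group, and its BMP-2 day 5 call was lost without any of 8 libraries.

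Of 13 genes of planar polarity and alternative receptors, 3 were called higher and 4 lower at RA day 21, and 6 higher and 4 lower at BMP-2 day 21, to be read against the same shares of all genes (23.4% and 21.1%, and 25.0% and 22.1%). PTK7, a polarity receptor, rose at both (1.71 ± 0.14 and 1.92 ± 0.14), as did PRICKLE2 (3.53 ± 0.29 and 2.90 ± 0.28) and DAAM2 (3.79 ± 0.45 and 3.72 ± 0.45). Of 10 other feedback and reported target genes, 3 were higher and 1 lower at RA day 21, and 2 higher and 1 lower at BMP-2 day 21, against those same shares. TNFRSF19 rose at both (4.59 ± 0.58 and 5.07 ± 0.60) and MYC fell at both (-2.24 ± 0.47 and -2.19 ± 0.47). CDX1, which is a target of both WNT and RA in the mouse, measured 24.1 and 10.7 CPM at RA day 5, 3.08 and 1.94 at RA day 10 and 0.613 and 0.391 at RA day 21, against 0.0811 and 0.0557 at day 0. DACT1, a modulator of Dishevelled, had its highest RA levels early. RA levels were 164.6 and 166.8 CPM (day 5), 41.4 and 63.1 (day 10), and 18.8 and 22.0 (day 21). BMP-2 levels were 119.9 and 165.4 CPM (day 5), 178.5 and 115.1 (day 10), and 92.4 and 98.8 (day 21). Untreated cells had 10.4 and 12.5 CPM of DACT1. Of 10 other extracellular modulators, 5 were higher and 0 lower at RA day 21, and 3 higher and 1 lower at BMP-2 day 21, where 25.0% and 22.1% of all genes were called (23.4% and 21.1% at RA day 21). SOST, an antagonist of LRP5 and LRP6 known from bone, was at 5.20 and 4.02 CPM at RA day 21, at most 0.164 at BMP-2 day 21, and at most 0.0406 at day 0. The calls of PTK7, PRICKLE2, DAAM2, TNFRSF19 and MYC at both day 21 groups, of DACT1 at BMP-2 day 21 and of SOST at RA day 21 held with each library left out. Those of CDX1 and DACT1 at RA day 21 were lost without either library of either group.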

How the data were processed

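RNA of 14 NT2 libraries in 7 groups of 2 was sequenced, per the labels. The authors deposited unnormalized counts for 25952 Ensembl genes. They also deposited RPKM values for these genes, made by the authors by scaling to gene length and depth. STAR, featureCounts, DESeq2 and build hg19 are named in the submitters' processing notes, and their versions are not given in the sources used here. Counting by strand is likewise not given. For most members the length behind the RPKM is about the whole gene span, so counts may include intron reads.

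Counts were tested with edgeR 4.0.16 (R 4.3.3, limma 3.58.1): TMM factors, a filter on low counts (filterByExpr, minimum 10) that left 19142 genes, and a quasi-likelihood F test over all 14 libraries with 1 coefficient per group and Benjamini-Hochberg adjustment over all tested genes for each of 11 comparisons. SE is the absolute log2 fold change divided by the square root of F. Where a group held at most 3 counts, a ratio with an exact 95% counting interval, or for 0 counts a fold against a floor of 3 counts over the group, replaces the fitted value. The fit was also run on simulated counts with the same spread for every gene, a check of the code and not of the calls in these data. Gene types and overlaps came from GENCODE 29 on GRCh38, which is not the build of the counts.

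Library values are given for the genes named singly and for the member of each class highest at day 0. They are also given for the 4 members of each role class with the largest called change against day 0 (mean of at least 5 CPM in the higher group). For TCF7, NOTUM, FRZB, DKK2 and RSPO1 some groups are left out. A range or highest value stands for some libraries of WNT2, FZD6, SFRP4, WIF1 and NKD1. Members outside this rule are said to be so in the text. The members and gene lists were chosen with earlier results of these data known. The core motif CTTTG was added after the longer one was counted. Alternatives were RLE factors, no filter, a filter on CPM, DESeq2 1.42.0, a replicate block, only the 4 libraries compared, no BMP-2 day 10 libraries, and each library left out. TUBB3, on the neuron list, is not analysed here.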

Additional observations from a re-analysis of the deposited data

Results flagged for a closer look

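The results here are members whose change against day 0 differed between day 21 and day 5 of the same treatment, since the direct comparison of the 2 times passed edgeR's test. Values are log2 fold changes of day 21 over day 5 unless a ratio is named.

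In RA, WNT2B (4.98), SFRP4 (5.29), RSPO3 (4.06), SFRP1 (2.89), FZD6 (1.38) and FZD1 (1.00) were higher at day 21. WIF1 had a ratio of 564.0 and DKK1 a ratio of 116.0, each against 2 counts at day 5. WNT9B (-7.94), SFRP2 (-4.27), SFRP5 (-3.41), FZD10 (-3.11), TCF7 (-2.71), LGR5 (-2.12) and FZD5 (-1.40) were lower at day 21, and WNT8A had a ratio of 0.0203 on 1 count at day 21.

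In BMP-2, WNT2 (4.54), WNT2B (3.05), RSPO3 (2.60), FZD4 (2.09) and FZD1 (1.69) were higher at day 21, and SFRP5, with 0 counts at day 5, was at least 25.0-fold higher. WNT9B (-7.96), WNT6 (-6.86), WNT5B (-3.67), FZD5 (-2.44), WNT5A (-1.15), FZD8 (-1.15) and LGR4 (-1.06) were lower at day 21. Each BMP-2 call was lost without at least 1 of the 14 libraries, while in RA the calls of WNT2B, SFRP4, RSPO3, SFRP1, SFRP2, WIF1 and DKK1 held with each left out. Whether these time courses differ between RA and BMP-2 was not tested.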

How the results depend on the processing

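Of 206 called member values, 78 held with each of the 14 libraries left out, and none changed sign under any alternative. RNF43, which is no member, had 3.84 at BMP-2 day 10, but -0.87 without replicate 1 and 4.81 without replicate 2 of that group. Members called, with 1 library left out, ranged at RA days 5, 10 and 21 against day 0 over 3 to 21, 4 to 26 and 17 to 31 (11, 21 and 27 with all), and at BMP-2 days 5, 10 and 21 over 16 to 34, 17 to 30 and 18 to 28 (28, 30 and 26 with all). For RA against BMP-2 at days 5, 10 and 21 they ranged over 3 to 27, 2 to 22 and 1 to 14 (12, 12 and 10 with all), for RA day 21 against day 5 over 8 to 20 (16), and for BMP-2 day 21 against day 5 over 0 to 24 (13). With 2 libraries a group, leaving out 1 leaves a lone library, taken to vary as much as the rest.

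DESeq2 called 23 members at RA day 5, 25 and 20 for RA against BMP-2 at days 5 and 10, and 23 for BMP-2 day 21 against day 5, where it called 17.1%, 21.9%, 20.7% and 26.3% of all genes, against 8.31%, 12.2%, 10.8% and 15.5% by edgeR. Without a filter on low counts, 20 were called at RA day 5 and 19 for RA against BMP-2 at day 5. Without both BMP-2 day 10 libraries these were 21 and 27, and 25 for BMP-2 day 21 against day 5. With only the 4 libraries compared, 3 were called at BMP-2 day 10 and 20 for RA against BMP-2 at day 21. For BMP-2 day 21 against day 5, 21 were called. For RA against BMP-2 at day 10 edgeR called 0 in that setting, where 16 had an unadjusted p under 0.05. DESeq2 was run on all 14 libraries and not on these 4, and called 20 for that comparison. The cause of these differences was not tested. RLE factors and the CPM filter kept every count within 1.5 times.

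Same-numbered libraries did not deviate alike in most pairs of groups. Of 21 pairs, 3 had a correlation of same-numbered deviations over 0.1 and 2 under -0.1 (range -0.342 to 0.146). Whether libraries of different groups share a culture cannot be told from these correlations. With the replicate block the counts were 9, 20 and 24 (RA days 5, 10 and 21), 27, 31 and 26 (BMP-2), 9, 11 and 10 (RA against BMP-2), 14 and 13 (day 21 against day 5), and 15 of the 206 calls were lost.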
